A study of Mus musculus with 2 samples.

Results

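The genes of the elastic fibre and of its cross-linking enzymes were compared between embryonic fibroblasts (MEFs) that lack Lats2 and wild-type MEFs. They are the 5 lysyl oxidases Lox, Loxl1, Loxl2, Loxl3 and Loxl4, elastin (Eln), the fibrillins Fbn1 and Fbn2, and the fibulins Fbln2 and Fbln5. Probes were taken by name: every non-control probe whose gene name in the array files is one of these 10 symbols was taken, without regard to its values. The 10 symbols themselves were chosen with earlier results of these data known. This gave 14 probes of the 41174 on the array, for 10 of 27745 gene names. A usable value on both arrays was obtained for 13 probes and 9 genes, because the only Fbln2 probe carried the scanner software's non-uniformity flag on each array.

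Both fibroblast populations came from C57BL/6J mice, one with the genotype LATS2-/- (KO) and one LATS2+/+ (WT), and neither received a treatment. MEFs are primary connective tissue cells grown out of minced embryos. The 2 RNAs were hybridised together to 2 Agilent whole mouse genome arrays, the first with the KO RNA in Cy5 (red) and the WT RNA in Cy3 (green), the second with the dyes exchanged. The labels name no animal, line or embryonic age and no second preparation, so the arrays were counted as 1 replicate: the SD given below is that between 2 hybridisations, and the difference between genotypes has no replicate check and no test. A ratio of bulk RNA cannot tell fewer cells of a kind from less RNA per cell.

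In the extracellular matrix, fibrillins assemble into microfibrils, elastin is laid down on them, and fibulins help to place the elastin and to bring the cross-linking enzymes to it. Lysyl oxidases are secreted, copper-dependent enzymes that oxidise lysine side chains of elastin and collagen, after which the chains join into cross-links. Loss of these proteins loosens skin, lung and large arteries, and fibrillin microfibrils also hold latent TGF-beta in the matrix. Fibroblasts and smooth muscle cells are the main makers of these fibres. The study asked how loss of LATS2, a kinase of the Hippo pathway, alters gene silencing by Polycomb proteins, and the arrays compare gene expression in the fibroblasts for that purpose.

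Lats2 itself was examined first, since it checks the labels. Of its 4 probes, all on chromosome 14, 3 were higher in the KO-labelled RNA, with mean log2 ratios of 0.56, 0.56 and 0.63, and 1 was lower, with -0.35. Each of the 4 was detected clearly above background in every channel. Which part of the gene is deleted in these mice is not given in the sources used here, so it is not known which probes could have lost their signal. The transcript level at 3 probes goes against the label, and each direction below is given as the labels have it. The study also examined Lats2 protein in its MEFs by western blotting, which is not analysed here. The RNAs are therefore called KO-labelled and WT-labelled.

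Over 22357 probes detected in both genotypes, the log2 ratio of a probe on a single array had an SD of 0.137, taken from the 2 dye orientations. It varied little with brightness, from 0.119 in the dimmest of 5 equal groups to 0.145 in the brightest. Cell type markers were checked on the same arrays. Each of the 11 measured fibroblast markers was detected, and their summed level was 108915 and 111095 units in the KO-labelled RNA against 134680 and 156332 in the WT-labelled RNA. No fibroblast marker was called, and 9 of the 11 had a mean ratio below 0. Of 7 smooth muscle markers 6 were well above background, with sums of 70570 and 70973 against 61511 and 60036 units, and the genes of this list differed in sign. Acta2 had 25092 and 22097 against 12585 and 14645 units at its brightest probe. The means of its 5 probes ran from -0.64 to 0.93, so its direction is uncertain. Cnn1 was called lower at -2.08 and -2.14, and the list without Acta2 summed to 45478 and 48876 against 48925 and 45391 units. For the other possible cells, 5 of 6 endothelial markers and 4 of 5 epithelial markers were not well above background in any channel. Of 6 macrophage and blood markers 2 were so (Ptprc and the gene the array calls Emr1), and the sums of this list were 1676 and 1640 against 1001 and 956 units. Lyz2 (lysozyme) carried that difference, since without it the sums were 386 and 362 against 402 and 360 units. Lyz2 was called higher at its brighter probe, with 1290 and 1279 against 599 and 595 units. Its other probe had a mean log2 ratio of 0.13, so the size of the Lyz2 difference is uncertain, and with it that of this list. These 3 markers are named after their values were seen. The summed levels of the endothelial (414 and 393 against 389 and 415 units), epithelial (350 and 361 against 364 and 369), neural (1446 and 1394 against 1489 and 1557) and cartilage markers (2065 and 2149 against 2196 and 2137) differed less. The part of these marker differences in the results below was not tested.

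Among the members, Loxl2 was higher and Fbn2 lower in the KO-labelled RNA, each about 4-fold and alike on both arrays. To be called, a gene had to reach a log2 ratio of 1 in size (2-fold, the threshold of the study's methods) with one sign on both arrays, and its probe had to be well above background in the genotype where it was higher. By this rule 1 of the 9 members with a usable value was called higher and 1 lower. Over all 15877 genes well above background in at least 1 genotype, 2.95% were called higher and 2.61% lower, and with so few members their count cannot be set apart from these shares. Counted over all probes, 599 were called higher and 503 lower, a split that became 321 and 169 with median centring in place of loess. The median log2 ratio of the 9 members was 0.48, beside 0.00 over all genes, and the median size without regard to sign was 0.85, beside 0.23 over the genes well above background. Of the 9 members 6 had a mean ratio above 0 and 3 below.

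**Figure D1:**
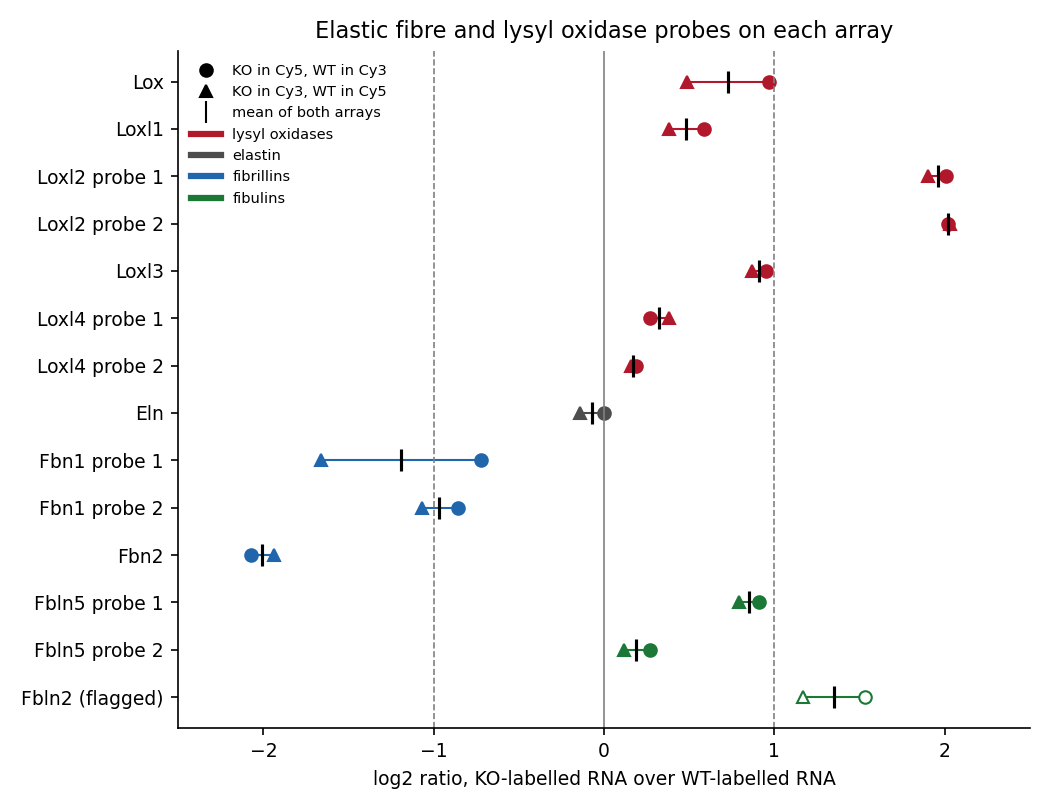
Log2 ratio of the KO-labelled RNA over the WT-labelled RNA for each of the 14 probes, with circles for the array with KO in Cy5, triangles for the array with KO in Cy3, a tick for their mean, and dashed lines at the 2-fold threshold; open symbols mark the flagged Fbln2 probe. Both Loxl2 probes lie near 2 and the Fbn2 probe near -2 on each array, all lysyl oxidase probes lie above 0, and the brighter Fbn1 probe has the widest distance between arrays.

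All 5 lysyl oxidases had a mean ratio above 0, from 0.32 for Loxl4 to 1.96 for Loxl2, also under each other scaling tried, and 1 of the 5 was called. Loxl2, which cross-links type IV collagen of basement membranes as well as fibrillar matrix, had normalised levels of 11449 and 11794 units in the KO-labelled RNA (KO in Cy5 first, then KO in Cy3) and of 2842 and 3158 units in the WT-labelled RNA. Both KO values thus lay far above both WT values. The log2 ratios were 2.01 and 1.90, with a mean of 1.96 ± 0.0774 (SD between the arrays), or 3.88-fold. This probe lies on chromosome 14, at positions 68430527 to 68430586 of the mm8 build used by the array files. A dimmer Loxl2 probe that starts 3113 bases away, at 68427414, gave 2.02 and 2.03, with a mean of 2.02 ± 0.00903. By the mean ratio of the probe standing for it, Loxl2 was the 138th highest of the 15877 genes well above background in at least 1 genotype. Loxl2 shares its chromosome with Lats2, and the nearest probes of the 2 genes are 11.8 Mb apart.

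Loxl3, an oxidase needed for palate and spine development, came next in the family. Its levels were 2415 and 2198 units in the KO-labelled RNA and 1247 and 1206 in the WT-labelled RNA, which do not overlap. The ratios of 0.95 and 0.87 (mean 0.91 ± 0.0618, 1.88-fold) stood just inside the 2-fold threshold on each array, and the gene was not called. At a 1.5-fold threshold Loxl3 and Fbln5 would join Loxl2 as higher and Fbn1 would join Fbn2 as lower, beside 7.04% and 7.17% of all detected genes. The Loxl3 probe lies on chromosome 6 at 83017907 to 83017966.

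Lox, the founding enzyme of the family and the main cross-linker of elastin and collagen in the aorta, lies on chromosome 18 and its probe at 52641882 to 52641941. Its levels were 21134 and 19512 units in the KO-labelled RNA and 10757 and 13933 in the WT-labelled RNA. All KO values were above all WT values, but the size differed between dye orientations, with ratios of 0.97 and 0.49 (mean 0.73 ± 0.345, 1.66-fold). The distance between the 2 arrays was thus larger than for most probes. Loxl1, which is tied to elastic fibre renewal, gave 17344 and 16571 units against 11557 and 12768 (chromosome 9, 58088900 to 58088959). Its ratios were 0.59 and 0.38 (mean 0.48 ± 0.148, 1.40-fold), larger than the SD between the arrays and below the threshold on each.

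Loxl4 was dim. Its brighter probe (chromosome 19) had 144 and 116 units in the KO-labelled RNA and 120 and 89.5 in the WT-labelled RNA, which overlap across arrays. Within each array the KO-labelled RNA was the brighter, by 0.27 and 0.38 on the log2 scale (mean 0.32 ± 0.0744). Its coordinates, 42648688 to 42650840, span 2153 bases for a 60-base probe, so its target is split in the genome. The second Loxl4 probe, at 42653346 to 42653405, did not rise well above background in either WT-labelled channel. Its measured difference was 1.13-fold, with ratios of 0.19 and 0.16. The size of the Loxl4 ratio depended on the processing of such dim spots: the ratio of the scanner software gave 0.64 for the brighter probe.

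Elastin, the protein that gives the fibre its recoil, was near the limit of detection in these cells. The single Eln probe (chromosome 5, 134987886 to 134987945) had 80.1 and 80.5 units in the KO-labelled RNA and 80.0 and 88.7 in the WT-labelled RNA, although the scanner software set it well above background in all channels. The ratios were 0.00 and -0.14, with a mean of -0.07 ± 0.100, within the SD between the arrays. At this brightness a change in elastin could not be measured well: the 2.5 to 97.5 percentile range of the mean ratio over the 794 genes of similar brightness ran only from -0.43 to 0.55.

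Both fibrillins were lower in the KO-labelled RNA, under each scaling tried. Fbn2, the fibrillin of embryonic microfibrils, had 637 and 665 units in the KO-labelled RNA against 2669 and 2557 in the WT-labelled RNA. No value of the one overlapped with the other, and the level in the KO-labelled RNA was 24.9% of that in the WT-labelled RNA. Its ratios were -2.07 and -1.94 (mean -2.01 ± 0.0880), which made it the 69th lowest of the 15877 genes well above background in at least 1 genotype. The Fbn2 probe lies on chromosome 18, at 58137687 to 58137746, and is the only one for this gene.

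Fbn1, the fibrillin of adult microfibrils that is mutated in Marfan syndrome, had 4065 and 2949 units in the KO-labelled RNA and 6702 and 9309 in the WT-labelled RNA at its brighter probe. Both KO values lay below both WT values, but the 2 arrays gave different sizes, with ratios of -0.72 and -1.66 (mean -1.19 ± 0.663, 43.8% of the level in the WT-labelled RNA). The gene was therefore not called, although its mean passed 2-fold, as did that of 3.08% of all detected genes on the lower side, and the array with KO in Cy3 alone would have called it. The dimmer probe varied less: its levels were 830 and 793 against 1505 and 1669 units, and its ratios -0.86 and -1.07 (mean -0.97 ± 0.152, 51.2%). The probes lie on chromosome 2, at 124992432 to 124992491 and at 124992959 to 124993018, with starts 527 bases apart.

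**Figure D2:**
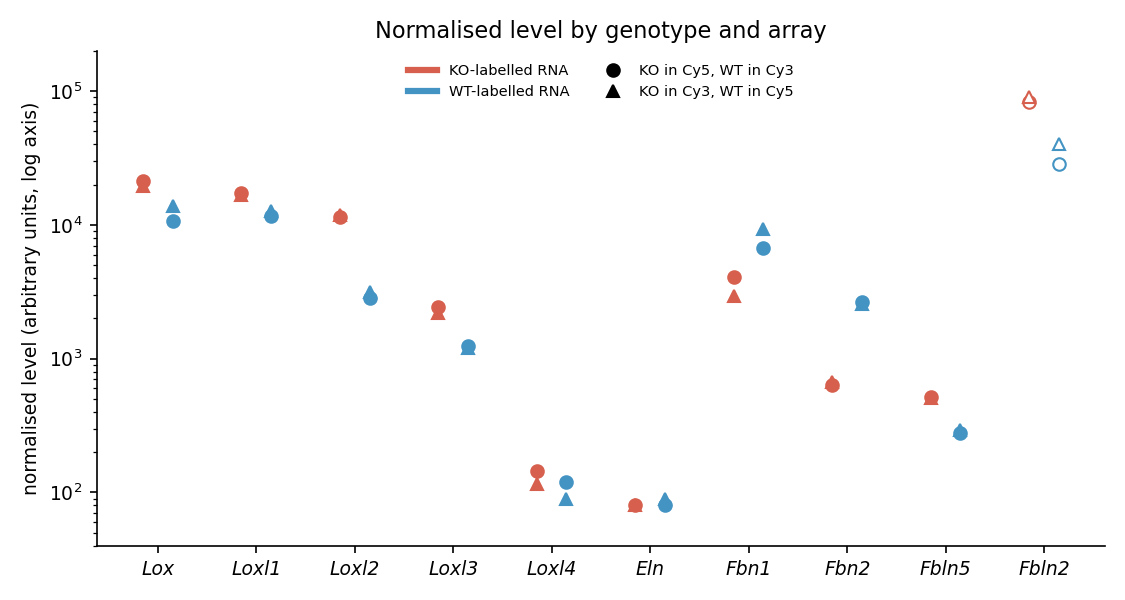
Normalised level, in arbitrary units on a log axis, of the probe standing for each of the 10 genes, in the KO-labelled RNA (red) and the WT-labelled RNA (blue), with circles for the array with KO in Cy5 and triangles for KO in Cy3; open symbols mark the flagged Fbln2 probe. Levels may be compared within a gene and not between genes, since probes differ in how they bind; Loxl2 stands at 11449 and 11794 against 2842 and 3158 units, and Fbn2 at 637 and 665 against 2669 and 2557.

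The fibulins were less well measured. Fbln5, which binds elastin and tethers Loxl1 to it, had 518 and 510 units in the KO-labelled RNA and 276 and 294 in the WT-labelled RNA at its brighter probe (chromosome 12, 102147718 to 102147777). The values do not overlap, and the ratios of 0.91 and 0.79 (mean 0.85 ± 0.0815, 1.80-fold) were alike but below the threshold. The dimmer Fbln5 probe, which starts 17824 bases away at 102165542, gave 0.27 and 0.12 (mean 0.19 ± 0.102). The 2 probes of this gene thus had the same sign but differed by 0.66 on the log2 scale, the widest distance among the 4 members with 2 probes, and their mean was 0.52. For Loxl2, Loxl4 and Fbn1 that distance was 0.06, 0.15 and 0.22.

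Fbln2, a fibulin of embryonic and vascular matrix that binds fibrillin and elastin, has 1 probe (chromosome 6, 91237628 to 91237687). Its spots were flagged as non-uniform on both arrays and were left out of all counts above. With flagged spots kept, its levels were 82313 and 90317 units in the KO-labelled RNA and 28458 and 40204 in the WT-labelled RNA, well above background in every channel. The ratios were 1.53 and 1.17 (mean 1.35 ± 0.258, 2.55-fold), so it would be called higher, where 2.95% of genes are called higher with flagged spots kept. The effect of the uneven spots on this value was not tested.

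Upstream sequence was available for 4 of the 10 members in the RefSeq table used here (Fbn1, Fbln2, Fbln5 and Loxl4), and it is shown for Fbn1, which was lower, and for the fibulins. Fbln5 has 2 entries, hence 2 annotated start sites. Each run holds the 250 bases before a start site of the GRCm38.p6 build, read 5′ to 3′ on the strand of the gene, and capitals mark each CpG. These coordinates are not those of the array probes, which are on mm8. CpG-rich sequence is shown because Polycomb complexes are known to gather at CpG-rich start sites, and no chromatin measurement belongs to these arrays.
Fbn1, chr2:125506439-125506688, minus strand: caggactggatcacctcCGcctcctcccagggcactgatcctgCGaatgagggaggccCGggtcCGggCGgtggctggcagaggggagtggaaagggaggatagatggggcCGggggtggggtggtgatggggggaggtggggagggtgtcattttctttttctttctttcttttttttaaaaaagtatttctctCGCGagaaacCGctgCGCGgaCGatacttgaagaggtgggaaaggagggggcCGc
Fbln2, chr6:91212514-91212763, plus strand: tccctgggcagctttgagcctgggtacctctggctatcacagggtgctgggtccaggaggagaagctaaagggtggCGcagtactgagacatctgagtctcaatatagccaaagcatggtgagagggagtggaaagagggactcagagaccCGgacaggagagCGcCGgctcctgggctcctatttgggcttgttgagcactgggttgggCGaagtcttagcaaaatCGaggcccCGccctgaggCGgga
Fbln5, chr12:101819120-101819369, minus strand: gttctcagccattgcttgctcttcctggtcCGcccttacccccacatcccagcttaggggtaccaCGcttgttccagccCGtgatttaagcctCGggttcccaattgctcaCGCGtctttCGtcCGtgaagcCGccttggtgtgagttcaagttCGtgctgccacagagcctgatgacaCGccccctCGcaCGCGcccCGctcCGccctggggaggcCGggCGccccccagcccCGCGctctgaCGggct
Fbln5, chr12:101818485-101818734, minus strand: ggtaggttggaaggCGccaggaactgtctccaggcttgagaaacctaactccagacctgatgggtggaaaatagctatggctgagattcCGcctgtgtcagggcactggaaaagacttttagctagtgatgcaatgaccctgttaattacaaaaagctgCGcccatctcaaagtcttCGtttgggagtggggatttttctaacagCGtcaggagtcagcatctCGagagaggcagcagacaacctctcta
The Fbn1 run holds 13 CpGs and has a GC content of 59.2%, the Fbln2 run 8 and 58.8%, the first Fbln5 run 21 and 65.2%, and the second Fbln5 run 6 and 49.6%. The Loxl4 run of the same length holds 27 CpGs with a GC content of 76.0%. Over one upstream run of each of 27025 genes the medians were 6 CpGs and 52.0%. The runs were also searched on both strands for 3 short words, which do not contain one another. The first, GGAATG, is the core bound by TEAD factors, through which the Hippo effectors act, and 12.6% of all runs hold it. The second, TGACTCA, is the site of AP-1 and was found in 4.43% of them. The last, TATAAA, is the TATA box and was found in 13.0%. None of these words was in any of the 5 runs. The absence says only that these letters are not in these windows.

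**Figure D3:**
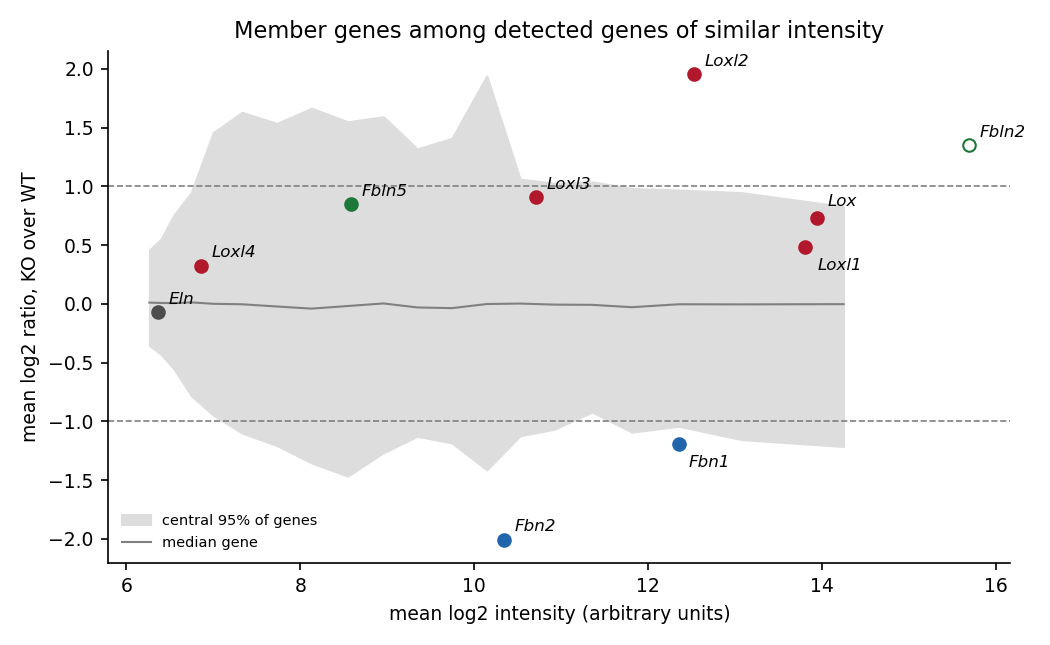
Mean log2 ratio of the KO-labelled RNA over the WT-labelled RNA against the mean log2 intensity of the probe standing for each member, over the central 95% of detected genes in 20 groups of equal size ordered by intensity (grey band, with the median as a line); Fbln2, open, was flagged. Loxl2 lies above the band and Fbn1 and Fbn2 below it, and the other 6 members with a usable value lie within it.

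Placed among genes of similar brightness, Loxl2, Fbn1 and Fbn2 were outside the central 95% of mean ratios, and the other 6 measured members were inside. For Loxl2 and Fbn1 that range ran from -1.04 to 0.97, and for Fbn2 from -1.12 to 1.06. The position of Fbn1 rests on its brighter probe, whose ratio of -0.72 on the array with KO in Cy5 was inside the range. The mean of -0.97 at the dimmer Fbn1 probe did not pass -1.04 either. The ratios of 0.91 for Loxl3 and 0.73 for Lox stood below upper limits of 1.06 and 0.83. For Fbln5 the range was wider, from -1.47 to 1.55. These positions describe the arrays and are no test.

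The wider set of elastic fibre and cross-linking genes was then described by role. Of 45 listed genes 42 had a usable value and 34 of these were well above background in at least 1 genotype. Among the 34, 4 were called higher (Mfap5, Thsd4, Tll1 and Mmp2) and 2 lower (Postn and Hmcn1), beside 2.95% and 2.61% of all detected genes. The median log2 ratio was 0.26 over the 34 genes, beside 0.00 over all detected genes. Of the 3 genes without a value, Adamts17 was not found by name, and Pcolce and Ctsl were flagged. With flagged spots kept, Pcolce gave 0.58 and 0.38 and Ctsl 0.59 and 1.13, so neither would be called.

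Among the microfibril-associated glycoproteins, Mfap5 (also MAGP2) was called higher. Its levels were 203 and 164 units in the KO-labelled RNA, and neither WT-labelled channel was well above background. The measured difference was 2.60-fold, with ratios of 1.41 and 1.35. Mfap2 (MAGP1), which binds fibrillin near its amino terminus, gave ratios of 0.81 and 0.80 at its brighter probe and a mean of 0.14 at the other. Mfap4, a glycoprotein of elastic fibres in skin and vessels, had the other sign, with -0.70 and -0.55 (mean -0.63), and was not called. The group thus lay on both sides of 0. Among the other fibulins Hmcn1 (hemicentin, a large fibulin relative) was called lower at its brighter probe, with -1.30 and -1.41 (mean -1.36). The other Hmcn1 probe gave -0.90 and -0.61 (mean -0.75) and did not reach the threshold. Neither probe was well above background in the KO-labelled RNA. Of those measured in both genotypes Fbln1 had the largest ratio, -0.51 and -0.66 (mean -0.59), which did not reach the threshold.

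Of the microfibril-binding ADAMTS-like proteins, Thsd4 (also Adamtsl6), which promotes fibrillin assembly, was called higher. Its levels were 646 and 615 units in the KO-labelled RNA against 244 and 238, with ratios of 1.40 and 1.37. A second Thsd4 probe was not well above background in the WT-labelled RNA and gave 0.55 and 0.71 (mean 0.63), below the threshold. The call of Thsd4 was lost with median centring in place of loess. All 5 emilins and multimerins, glycoproteins found at the surface of elastic fibres and vessels, had a mean ratio below 0 and none was called, although Mmrn1, not well above background, lost or turned its sign under 4 scalings. The largest of them was Emilin2, at -0.58 and -0.59. The 4 latent TGF-beta binding proteins were also uncalled, and Ltbp1 had the largest ratio, -0.79 and -0.85, with 0.54 for Ltbp2 in the opposite direction.

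The genes that process and place lysyl oxidases held called genes in both directions. Tll1, a metalloproteinase of the BMP1 family that cleaves the lysyl oxidase precursor, was called higher, with levels of 400 and 333 units against 147 and 150 and ratios of 1.44 and 1.15. Postn (periostin), a matrix protein that binds BMP1 and fosters lysyl oxidase activation, was called lower. Its levels of 22124 and 20355 units in the KO-labelled RNA lay far below the 69329 and 68077 of the WT-labelled RNA, at ratios of -1.65 and -1.74 (mean -1.69 ± 0.0664, 30.9%). Fn1, the fibronectin scaffold, and Bmp1 itself were uncalled, with means of 0.89 and 0.33 at their brightest probes. The 4 Fn1 probes had means from 0.27 to 0.99. A second Bmp1 probe gave -0.25 and -0.05 (mean -0.15), so the direction of Bmp1 is uncertain. Both calls of this group, Tll1 and Postn, were lost with median centring in place of loess. The Tll1 call was also lost under the unadjusted t-test of the methods, run here on these arrays alone.

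The copper transporters, lysyl hydroxylases and elastin receptor genes held no called gene. Atp7a, which loads copper onto secreted enzymes, gave 0.71 and 0.72 at its brighter probe. A dim second probe, not well above background in the KO-labelled RNA, gave -0.17 and -0.35 (mean -0.26). The probes of this gene thus stood on opposite sides and its direction is uncertain. Among the lysyl hydroxylases, which modify collagen lysines, the largest ratio was that of Plod3, 0.57 on each array at its brighter probe. The other Plod3 probe gave 0.22 and 0.80 (mean 0.51). Ctsa of the elastin receptor complex gave 0.73 and 0.81. Of 6 measured elastases only Mmp2 (gelatinase A) was well above background, and it was called higher. Its levels were 2656 and 3177 units in the KO-labelled RNA and 865 and 814 in the WT-labelled RNA, with ratios of 1.62 and 1.96 (mean 1.79 ± 0.246, 3.46-fold). The unadjusted t-test of the methods, run here on these arrays alone, did not make this call.

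**Figure D4:**
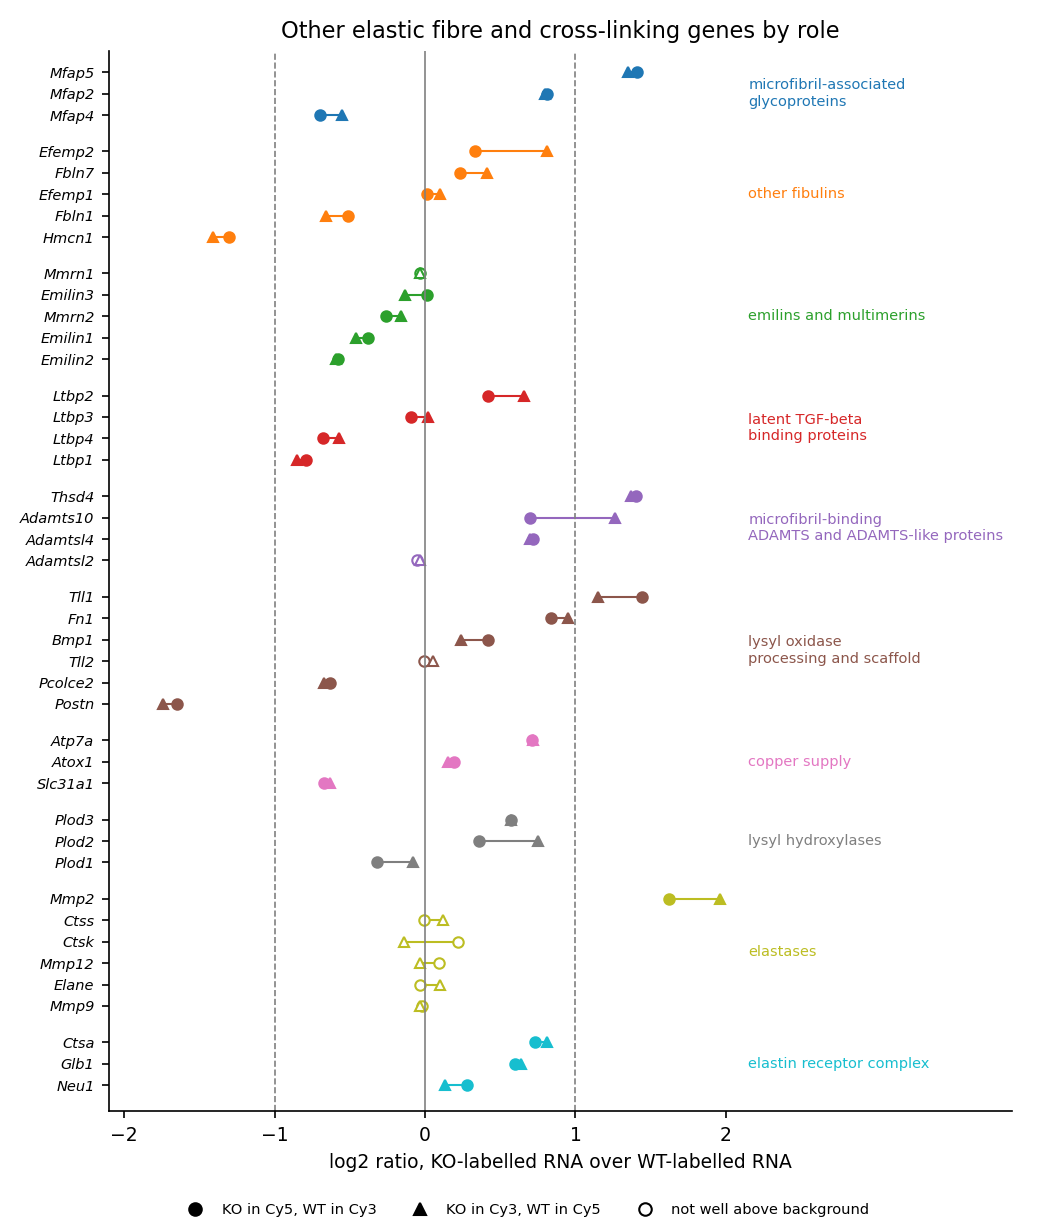
Log2 ratio of the KO-labelled RNA over the WT-labelled RNA for the 42 other elastic fibre and cross-linking genes with a usable value, grouped by role, with circles for the array with KO in Cy5, triangles for KO in Cy3, dashed lines at the 2-fold threshold, and open symbols for genes not well above background in either genotype. Mfap5, Thsd4, Tll1 and Mmp2 lie beyond the threshold on the right and Postn and Hmcn1 beyond it on the left on both arrays.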

How the data were processed

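Per the file headers, the arrays (Agilent G4122F) were read with Agilent Feature Extraction 10.5.1.1, and the authors deposited for each spot the mean signal and local background as intensity in arbitrary units, with the log10 ratio (red over green) that the software computes. A deposited table of log2 values matched the KO/WT ratio of the software's processed signals, to within 0.01 for 99.78% and 99.80% of 41174 probes; its column medians were -0.0177 and 0.0367, so it was not centred, and its scale and direction are known. Coordinates are those of the files (mm8, NCBI36), and the place of probes within exons was not analysed.

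Intensities were background corrected (normexp, offset 50) and normalised by loess within each array with limma 3.58.1 in R 4.3.3. Control spots (1639 of 45018) and spots flagged as non-uniform or population outliers were left out. Ratios of the dye-swapped array were multiplied by -1 and both arrays were averaged. The offset draws ratios of dim probes towards 0. Levels are channel values after Aquantile scaling. The brightest usable probe stood for a gene. Where the dimmer genotype was not well above background, the measured ratio is given, which is not a lower limit. The median mean signal was 94.7 and 97.0 units in Cy5 and 59.6 and 57.4 in Cy3, over backgrounds of 30 to 36, and no member channel was saturated. The number of arrays limits the precision.

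Named were all members, Lats2, every called gene of the pathway list, and in each role group the gene with the largest ratio measured in both genotypes; a few others are given for context and were chosen after their values were seen. The members and lists were chosen with earlier results of these data known. The steps were tested on simulated data. Alternatives were other ratios, normalisations, filters and thresholds, limma and the methods' t-test, and each array alone. Further steps used pandas 2.3.3 and scipy 1.17.1 (Python 3.11.15), and figures matplotlib 3.10.9.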

Additional observations from a re-analysis of the deposited data

How the results depend on the processing

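Loxl2 was called higher and Fbn2 lower under every alternative except the methods' t-test after Benjamini-Hochberg adjustment. That test called 0 members, 0 pathway genes and 0 probes. Unadjusted at 0.05, with a 2-fold change also required, it called 1 member higher and 1 lower, and 2 pathway genes higher. By it 524 probes were higher and 443 lower. Limma, at an adjusted p under 0.05 and a mean of at least 2-fold, called 662 probes higher and 598 lower. Fbn1 was then a second member lower. The 2-fold mean alone gave the same probe counts. Lox, Loxl1, Loxl3, Loxl4 and Fbln5 also had an adjusted limma p under 0.05 but stood below 2-fold. Loxl3 and Fbln5 likewise passed the unadjusted t-test at 0.05. Limma and the t-test were run here on this pair of arrays and compare the RNAs hybridised, not the genotypes. The paper describes independent MEF lines, so the t-test here is not the study's own test. The count of members called lower also rose to 2, with Fbn1, when the mean of both arrays decided and with the array of KO in Cy3 alone (range of the single arrays 1 to 2). Fbln2 made the members called higher 2 with flagged spots kept and in the deposited table. At a 1.5-fold threshold Loxl3 and Fbln5 joined Loxl2 (3 higher) and Fbn1 joined Fbn2 (2 lower), beside 7.04% and 7.17% of all detected genes; 11 pathway genes were then higher and 5 lower, and 1480 and 1515 probes. The median of the members was 0.48, and 0.636 with the Feature Extraction ratio. It was 0.684 in the deposited table, where the flagged Fbln2 was included as well. The probe counts of 599 and 503 became 1280 and 1220 with the Feature Extraction ratio, 1284 and 1224 in the authors' table; median centring gave 321 and 169 and left 2 pathway genes higher (Mfap5 and Mmp2) and 1 lower (Hmcn1). Where detection in both genotypes was required, 1 pathway gene was lower (Postn). The causes were not tested. Of 81 recomputed values of single members 69 stayed within 0.137 of the main value and 12 moved further, 9 of them to a larger size; the sign changed once, for Eln, from -0.07 to 0.00 on the array with KO in Cy5. Values ranged from 1.90 to 2.02 for Loxl2, from -2.14 to -1.94 for Fbn2, from -1.66 to -0.72 for Fbn1, from 0.49 to 0.97 for Lox and from 0.52 to 1.04 for Fbln5. No paired analysis was possible because each dye orientation has 1 array and the pair was counted as 1 replicate.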
